A study of Mus musculus with 6 samples.

Results

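The MHC class I transcripts were followed in stem and progenitor cells of FLT3-ITD mice with and without the microRNA miR-155. The members were the 10 rows of the deposited gene table named H2-K1, H2-D1, H2-Q4, H2-Q6, H2-Q7, H2-T22, H2-T23, H2-T24, H2-M3 and B2m, out of 22475 rows in all, and each of the 10 passed the filter on low counts. The 3 KO libraries (FLT3-ITD miR-155 KO) came from mice homozygous for a miR-155 deletion, and the 3 control libraries (FLT3-ITD) from mice with wild-type miR-155. All mice also carried FLT3-ITD on both alleles, a duplication within the Flt3 gene that makes the receptor signal without its ligand, so no library came from mice without that mutation. The cells were sorted from bone marrow as Lin-, cKit+ and Sca1+, a gate rich in haematopoietic stem and progenitor cells, and each library held the RNA of 3 pooled mice. Nothing further says how the pools were made, so p-values measure the spread between pools. Strain, age and sex of the mice are not stated in the labels, and H2 alleles differ between mouse strains.

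MHC class I molecules are cell surface proteins made of a heavy chain, a bound peptide and the invariant light chain beta-2 microglobulin, encoded by B2m. The classical heavy chains H2-K1 and H2-D1 show peptides of the cell's own proteins to CD8+ T cells and are ligands of inhibitory receptors on natural killer cells. The non-classical heavy chains of the Q, T and M regions vary less between individuals and have narrower tasks, and interferons raise the transcription of most genes of the pathway through IRF factors and the coactivator NLRC5.

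Library totals lay between 6843129 and 9443615 counts, and the members had between 221 and 16762 counts per library. The gate genes Kit and Ly6a, and Flt3, which was not part of the gate, were abundant. They had 105 to 387 CPM (library-scaled counts after TMM normalization) in every library. The host transcript of miR-155, Gm26667, had 4, 14 and 4 counts in the KO libraries against 33, 48 and 36 in the FLT3-ITD libraries (log2 fold change -2.14 ± 0.46, SE; adjusted p 0.274 in edgeR, 0.0377 with the replicate number as a block). Both libraries labelled number 1 stood apart from the rest in macrophage markers. The 7 macrophage markers in the table summed to 465 CPM in KO library 1 and 669 CPM in FLT3-ITD library 1, and to between 47.9 and 125 CPM in the other libraries. The members' fold changes are therefore also given without them. In bulk RNA of this kind, fewer cells of a type and less RNA per cell cannot be told apart.

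The promoters show what the members share at the sequence level before any value is compared. The RefSeq table (build GRCm38.p6) held a window of 300 bases, from 250 before to 50 after the transcription start, for 9 of the 10 members, all except H2-T24. The 200 bases before the start are printed for the classical pair, for H2-T23 and H2-M3 as non-classical genes without a kB-like match, and for the light chain. Capitals mark 2 motifs, searched on both strands: an IRF-type pair (AANNGAAA, a spacing that interferon regulatory factors can bind) and a kB-like motif (GGGNNTTNC, as in the enhancer A element of class I genes).
H2-K1 (chr17:34000348-34000547, minus strand): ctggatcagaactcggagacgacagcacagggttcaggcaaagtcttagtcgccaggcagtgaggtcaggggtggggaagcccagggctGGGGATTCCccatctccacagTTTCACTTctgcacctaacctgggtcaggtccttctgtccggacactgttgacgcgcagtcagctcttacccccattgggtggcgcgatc
H2-D1 (chr17:35262894-35263093, plus strand): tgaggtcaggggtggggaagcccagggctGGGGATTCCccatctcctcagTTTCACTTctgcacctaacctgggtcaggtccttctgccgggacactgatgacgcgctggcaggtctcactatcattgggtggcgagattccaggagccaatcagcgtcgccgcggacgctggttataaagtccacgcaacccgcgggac
H2-T23 (chr17:36032702-36032901, minus strand): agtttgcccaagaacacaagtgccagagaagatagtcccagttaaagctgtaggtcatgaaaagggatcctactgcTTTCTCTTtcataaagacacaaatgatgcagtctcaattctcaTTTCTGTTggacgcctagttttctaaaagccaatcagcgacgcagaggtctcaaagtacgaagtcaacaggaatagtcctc
H2-M3 (chr17:37270034-37270233, plus strand): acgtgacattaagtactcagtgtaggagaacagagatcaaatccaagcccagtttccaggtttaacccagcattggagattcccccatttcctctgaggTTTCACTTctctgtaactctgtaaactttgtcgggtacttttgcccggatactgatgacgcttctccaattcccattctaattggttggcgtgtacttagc
B2m (chr2:122147487-122147686, plus strand): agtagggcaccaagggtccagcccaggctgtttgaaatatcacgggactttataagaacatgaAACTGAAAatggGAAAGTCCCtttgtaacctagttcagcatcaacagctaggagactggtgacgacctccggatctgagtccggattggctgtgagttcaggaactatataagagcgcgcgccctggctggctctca

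The motifs were chosen with these windows in view, and a match is a description of letters, not a site. The IRF-type pair was in 9 of 9 member windows and in 23.9% of the 32851 windows of the RefSeq table. The kB-like motif was in 6 of 9, namely H2-K1, H2-D1, H2-Q4, H2-Q6, H2-Q7 and B2m, against 15.2% of all windows. An X2-like motif (TGNTGAC) was in 9 of 9 and in 14.1% of all windows, and a Y-like motif (CCAAT) was in 9 of 9 and in 37.4% of all windows. The only X2-like match of H2-T23 lay on the strand opposite to the gene, at -19 to -13. Every other member window held one on the strand of the gene. All 4 motifs together were in 6 of 9 member windows and in 0.204% of all windows, and the class I windows are copies of related genes rather than independent cases. In H2-K1, H2-D1 and H2-Q6 the kB-like match began 21 bases before the IRF-type pair. In H2-Q7 it began 20 bases before it, as did the nearer of a pair of overlapping kB-like matches in H2-Q4. In B2m the order was turned round, with the IRF-type pair at -137 to -130 and the kB-like match at -125 to -117 from the start. The H2-T23 window held IRF-type pairs at -124 and -81 and no kB-like match. RefSeq and GENCODE place some starts differently: of the 200 bases printed, 154 in H2-T23, with both IRF-type pairs, and all 200 in H2-D1 lie inside the gene as GENCODE M21 gives it. The overlap was 14 bases in H2-M3, 1 in B2m and 0 in H2-K1.

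**Figure D1:**
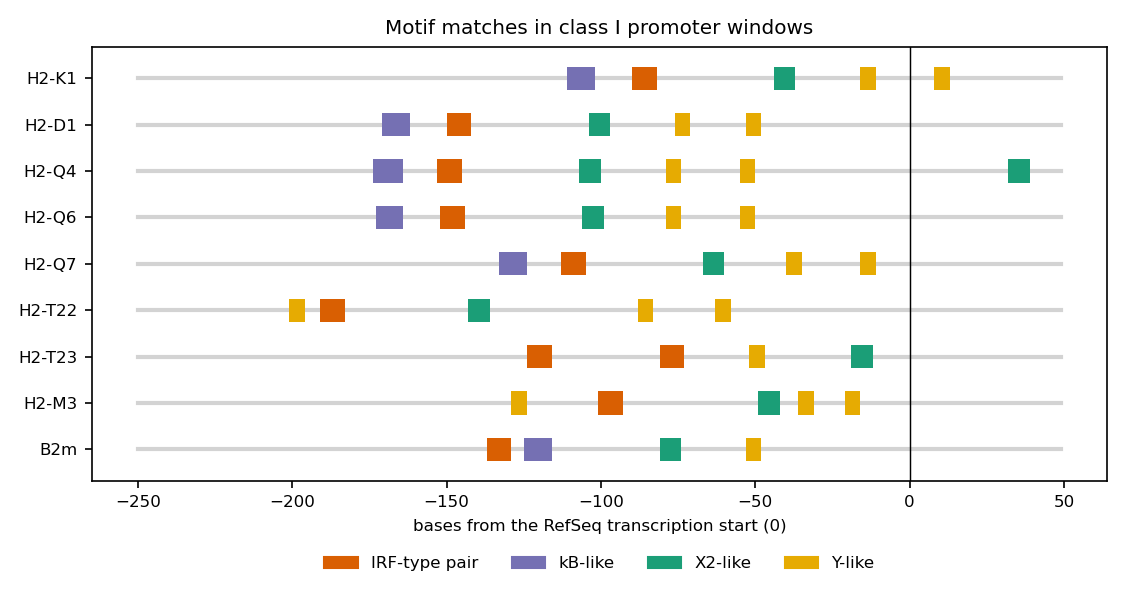
Matches of 4 motifs in the promoter windows of 9 class I members, plotted by distance in bases from the RefSeq transcription start at 0; grey lines are the windows and coloured blocks the matches. Read from the left, the first matches come in the order kB-like, IRF-type, X2-like, Y-like in H2-K1, H2-D1, H2-Q4, H2-Q6 and H2-Q7, and H2-T22, H2-T23 and H2-M3 lack a kB-like match.

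The deleted microRNA is printed with its seed, bases 2 to 8, in capitals, because direct targets often carry a seed match in the 3' UTR.
mmu-miR-155-5p (chr16:84714143-84714165, plus strand): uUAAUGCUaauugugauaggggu

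None of the 10 members had an 8mer (AGCATTAA), a 7mer (AGCATTA or GCATTAA) or a 6mer (GCATTA) match to that seed in its longest 3' UTR of the GENCODE annotation. Those UTRs were 212 bases (H2-T23) to 1077 bases (H2-Q6) long, against a median of 1185 bases over 11717 tested genes with an annotated UTR. Of these genes 21.8% had a 6mer or longer, 13.9% a 7mer or 8mer and 3.37% an 8mer. Imperfect matches and sites outside the 3' UTR were not searched, and direct targeting was not tested.

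Levels of different members are compared per length, on the scale of the FPKM values the authors deposited. The gene lengths behind those values are not stated, and the order of genes in FPKM can depend on them. The light chain was the most abundant and the classical heavy chains came next, far above the non-classical ones. B2m averaged 2193 ± 95.4 FPKM in KO libraries and 2096 ± 68.9 FPKM in FLT3-ITD libraries (SD, n = 3 each). H2-K1 averaged 599 ± 26.2 FPKM in KO and 542 ± 26.9 FPKM in FLT3-ITD libraries (SD, n = 3 each), and H2-D1 averaged 496 ± 88.6 FPKM in KO and 407 ± 27.2 FPKM in FLT3-ITD libraries (SD, n = 3 each). H2-K1 stood above H2-D1 in 6 of 6 libraries, although their ranges over libraries overlapped.

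Among the non-classical genes H2-Q6 was highest in FPKM, with 82.6 ± 3.53 in KO and 70.5 ± 8.90 in FLT3-ITD libraries (SD, n = 3 each). H2-T23, H2-Q4 and H2-M3 followed with overlapping ranges, between 39.7 and 77.1 FPKM over all libraries, and the range of H2-T23 also overlapped that of H2-Q6. In FPKM the lowest 3 were H2-T22, H2-Q7 and H2-T24, between 11.9 and 26.5, and their ranges also overlapped. Neighbours within these sets were thus not separated beyond their spread. This order holds for the authors' lengths only. In mean CPM over all libraries H2-T23 (170) stood above H2-Q6 (160), and H2-Q7 (85.0) above H2-T22 (74.7). The longest protein-coding transcripts in GENCODE M21 have 1472 bases in H2-T23, 2085 in H2-Q6, 1523 in H2-Q7 and 1761 in H2-T22. H2-T23 thus had more CPM and a shorter transcript than H2-Q6, and H2-Q7 than H2-T22, yet a lower mean FPKM. The authors' lengths are therefore not all those of these transcripts, with which both orders would be turned round. The gap between H2-D1, whose lowest library had 376 FPKM, and H2-Q6, whose highest had 85.5 FPKM, held no library of either gene.

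**Figure D2:**
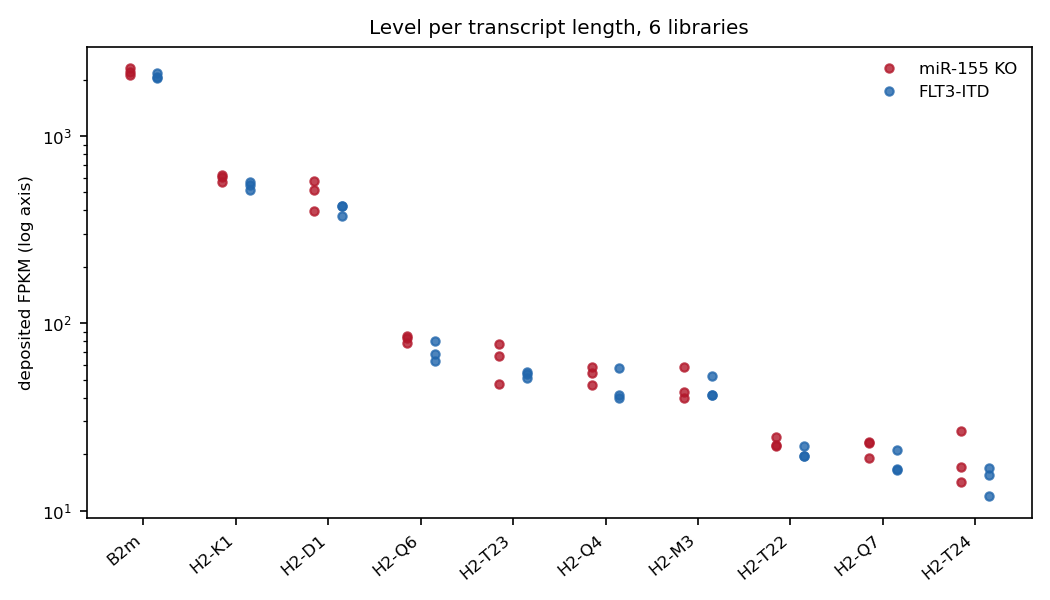
FPKM (log axis) of the 10 class I members in the 3 miR-155 KO libraries (red) and the 3 FLT3-ITD libraries (blue), ordered by mean level. B2m lies between 2049 and 2294 FPKM, H2-K1 and H2-D1 between 376 and 619.9 FPKM, and the 7 non-classical genes between 11.9 and 85.5 FPKM.

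Counts of these relatives depend on how reads shared between them were assigned, which the labels do not state. Of the 50-base stretches of each member's longest protein-coding transcript in GENCODE M21, 100% were unique to the gene in B2m, 99.4% in H2-M3, 96.8% in H2-T24, 91.2% in H2-K1 and 85.7% in H2-D1. H2-Q4 (75.7%), H2-T23 (71.2%), H2-Q6 (68.0%), H2-Q7 (65.1%) and H2-T22 (55.3%) had fewer unique stretches. H2-T22 shared 37.9% of its stretches with H2-T10, and H2-Q7 shared 19.3% with H2-Q6 and 15.2% with H2-Q5. Values of these 5 genes are therefore uncertain as to the exact gene.

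The main comparison asked whether class I transcripts differ in FLT3-ITD progenitors when miR-155 is missing. All 10 members had slightly higher mean levels in KO libraries, by a fitted 1.05-fold (B2m) to 1.31-fold (H2-T24), and none passed the threshold. Over the 13217 genes tested with edgeR's quasi-likelihood test, 0.159% passed at an adjusted p of 0.05 (0.0151% higher and 0.144% lower in KO, 21 genes in all), and 0 of the 10 members did. No member had an unadjusted p under 0.05 in edgeR, against 3.9% of all genes. DESeq2 also called 0 of the 10, against 127 of 13217 genes. The median log2 fold change was 0.22 over the members and 0.00 over all genes tested. A positive fold change was found for 10 of 10 members and for 50.2% of all genes, and the members share their 6 libraries, so these are not 10 independent observations.

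The classical chains had the following levels. H2-K1 (ENSMUSG00000061232, chromosome 17, 33996017 to 34000347, minus strand, GRCm38, protein coding) had 1659, 1575 and 1465 CPM in KO libraries 1, 2 and 3, against 1457, 1461 and 1334 CPM in FLT3-ITD libraries 1, 2 and 3. Every KO library lay above every FLT3-ITD library, by a margin of a few CPM, and H2-K1 was the only member whose groups did not overlap. That is 1 of 10 members, against 3.43% of all genes with all KO libraries above all control libraries. Its log2 fold change was 0.14 ± 0.10 (SE; adjusted p 0.9995 in edgeR), with a 95% interval of 0.946-fold to 1.29-fold.

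H2-D1 (ENSMUSG00000073411, chromosome 17, 35262730 to 35267499, plus strand) had 1551, 1291 and 1016 CPM in KO libraries, against 1122, 1074 and 964 CPM in FLT3-ITD libraries. KO library 3 lay below FLT3-ITD libraries 1 and 2, so the groups overlapped. The log2 fold change was 0.29 ± 0.16 (SE; adjusted p 0.9995 in edgeR), with 0.14 without KO library 1 and 0.43 without KO library 3. Within the KO group H2-D1 varied by 20.8% of its mean (the SD as a percentage), against 6.23% for H2-K1, and in the FLT3-ITD group by 7.68% against 5.11%. The ratio of H2-D1 to H2-K1 in FPKM was 0.945, 0.829 and 0.701 in KO libraries and 0.779, 0.743 and 0.731 in FLT3-ITD libraries, so the KO libraries spanned a wider range on both sides of the control.

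The Q region genes followed a like pattern with different orders of libraries. H2-Q6 and H2-Q7 encode forms of the Qa-2 antigen. H2-Q6 (ENSMUSG00000073409, chromosome 17, 35424850 to 35430055) had 183, 174 and 162 CPM in KO libraries, against 134, 165 and 142 CPM in FLT3-ITD libraries. Only KO library 3 reached down into the range of the control, below FLT3-ITD library 2. The log2 difference, 0.23 ± 0.10 (SE), had the smallest unadjusted p of the members in edgeR (0.0507, adjusted p 0.9995), which ranks it 521 among all genes tested.

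H2-Q7 (ENSMUSG00000060550, chromosome 17, 35439155 to 35443773) had 103, 95.6 and 80.1 CPM in KO libraries and 71.8, 88.1 and 70.7 CPM in FLT3-ITD libraries. KO libraries 1 and 2 lay above the control, and KO library 3 below FLT3-ITD library 2. On the log2 scale the fitted fold change came to 0.27 ± 0.13 (SE), and edgeR gave an adjusted p of 0.9995. The counts of H2-Q6 were 1.77 to 2.02 times those of H2-Q7 in every library, with a mean ratio of 1.87 ± 0.134 in KO and 1.92 ± 0.0786 in FLT3-ITD libraries (SD, n = 3 each). Summed into 1 row, because of the stretches they share, both had 286, 269 and 242 CPM in KO libraries and 206, 253 and 213 CPM in FLT3-ITD libraries. The summed log2 fold change was 0.25 ± 0.11 (SE; adjusted p 0.9995 in edgeR). With the replicate number as a block it was 0.25 ± 0.09 (SE; adjusted p 0.446 in edgeR).

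H2-Q4 (ENSMUSG00000035929, chromosome 17, 35379617 to 35385290) had 148, 147 and 120 CPM in KO libraries, against 106, 148 and 107 CPM in FLT3-ITD libraries. FLT3-ITD library 2 was the highest of all 6 for this gene, the only member for which KO library 1 was not. The log2 fold change was 0.20 ± 0.15 (SE; adjusted p 0.9995 in edgeR). It was 0.38 without FLT3-ITD library 2, 0.12 without FLT3-ITD library 1 and 0.13 without FLT3-ITD library 3.

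Of the T region genes, H2-T23 encodes Qa-1, which presents leader peptides of other class I chains to the CD94/NKG2A receptor of natural killer cells. H2-T23 (ENSMUSG00000067212, chromosome 17, 36029773 to 36032855, minus strand) had 234, 188 and 136 CPM in KO libraries, against 151, 156 and 155 CPM in FLT3-ITD libraries. The SD was 26.4% of the mean in KO libraries, which lay on both sides of the control, and 1.77% in FLT3-ITD libraries. Its log2 fold change was 0.27 ± 0.18 (SE; adjusted p 0.9995 in edgeR), 0.08 without KO library 1 and 0.46 without KO library 3 (adjusted p 0.365).

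H2-T22, a ligand of certain gamma-delta T cell receptors (ENSMUSG00000056116, chromosome 17, 36037128 to 36042747), had 88.9, 74.7 and 74.7 CPM in KO libraries and 77.7, 66.0 and 66.2 CPM in FLT3-ITD libraries. Library 1 was the highest of each group, and FLT3-ITD library 1 lay above KO libraries 2 and 3. The log2 ratio within pairs of equal number was 0.19, 0.18 and 0.17, the narrowest range of the 10 members. The fitted log2 fold change was 0.18 ± 0.11 (SE; adjusted p 0.9995 in edgeR), and 0.10 without KO library 1.

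H2-T24 (ENSMUSG00000053835, chromosome 17, 36005695 to 36020560) was the least abundant member, with 60.5, 36.3 and 30.5 CPM in KO libraries against 37.6, 25.6 and 33.5 CPM in FLT3-ITD libraries. KO library 1 was far above the other libraries, which overlapped between the groups. At 0.39 ± 0.27 (SE), its log2 fold change was both the largest and the least precise of the 10 members (adjusted p 0.9995 in edgeR). It was 0.05 without KO library 1 and 0.25 without FLT3-ITD library 2.

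H2-M3 presents N-formylated peptides of bacterial and mitochondrial origin. It (ENSMUSG00000016206, chromosome 17, 37270220 to 37274484) had 88.6, 60.1 and 56.4 CPM in KO libraries and 76.8, 58.6 and 59.1 CPM in FLT3-ITD libraries. Both number 1 libraries were the high ones and the other 4 were close together. The fitted difference on the log2 scale was 0.07 ± 0.20 (SE; edgeR adjusted p 0.9995). It turned to -0.15 without KO library 1 and to -0.01 without both libraries of number 1, and lay between 0.01 and 0.22 when any other library was left out.

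The light chain B2m (ENSMUSG00000060802, chromosome 2, 122147686 to 122153083) had 2069, 1762 and 1852 CPM in KO libraries, against 1821, 1844 and 1752 CPM in FLT3-ITD libraries. The groups overlapped, with KO library 1 above and KO library 2 below most of the control. Its log2 fold change was 0.07 ± 0.10 (SE; adjusted p 0.9995 in edgeR), 0.01 without KO library 1 and 0.11 without KO library 2. Its 95% interval, 0.893-fold to 1.23-fold, reached least far upward among the members. Relative to the summed heavy chains in FPKM, B2m averaged 1.57 ± 0.169 in KO and 1.72 ± 0.0560 in FLT3-ITD libraries (SD, n = 3 each), and KO library 3, at 1.76, lay inside the range of the control.

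**Figure D3:**
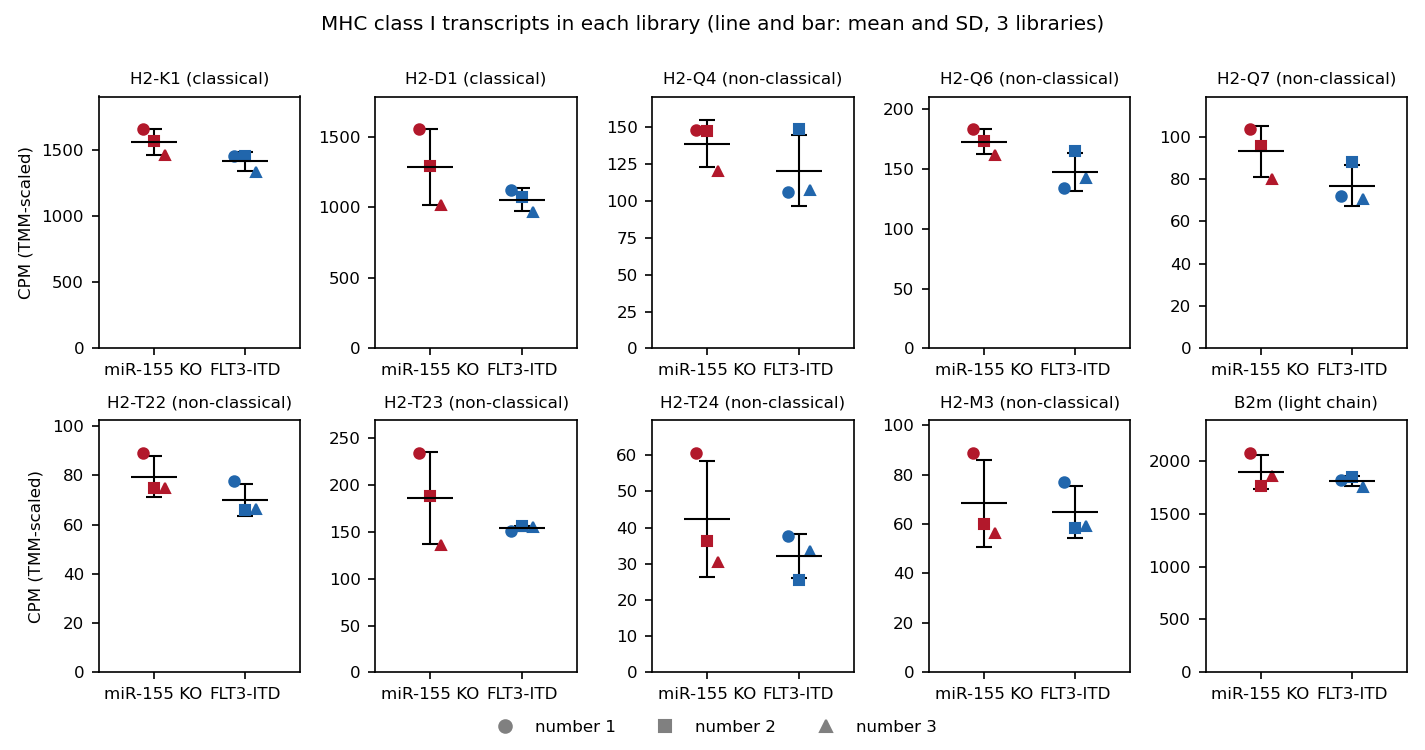
CPM of each class I member in the 3 miR-155 KO libraries (left, red) and the 3 FLT3-ITD libraries (right, blue); marker shapes give the replicate number, and lines with bars are the mean and SD of 3 libraries. KO library 1 is the highest library for 9 of 10 members, and the groups overlap for every member except H2-K1.

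In the fit on the group alone, upper limits of the 95% intervals for the 10 members ran from 1.23-fold (B2m) to 2.02-fold (H2-T24). Every interval of that fit held a fold change of 1. Its upper limits were 1.29-fold for H2-K1 and 1.58-fold for H2-D1. A missed threshold with 3 pools a group therefore does not show that the levels were equal.

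Libraries with the same replicate number deviated together, least so for number 3 (r = 0.22). The number was therefore also used as a block, although it changed no call among the members. With the block 1.36% of all genes passed (0.318% higher and 1.04% lower in KO, 180 genes in all) and 0 of the 10 members did. Unadjusted p under 0.05 was reached by 4 of 10 members with the block (H2-D1, H2-Q6, H2-Q7 and H2-T22), against 9.37% of all genes. Their blocked adjusted p lay between 0.421 and 0.469 in edgeR. Within pairs of equal number, 5 of 10 members were higher in all 3 pairs (H2-K1, H2-D1, H2-Q6, H2-Q7 and H2-T22), against 15.1% of all genes.

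The median log2 ratio of KO over FLT3-ITD among the members was 0.46 in pair 1, 0.11 in pair 2 and 0.11 in pair 3, with 10, 8 and 7 of 10 members higher. Over all genes tested the pair medians were within 0.01 of 0. Every member had its largest ratio in pair 1. Without KO library 1 the median log2 fold change over the members was 0.10, and without both libraries of number 1 it was 0.13, each with 9 of 10 positive. Without both, H2-K1 stood at 0.12, H2-D1, H2-T24 and H2-T22 at 0.18, H2-Q7 at 0.15, H2-Q6 at 0.13, H2-Q4 at 0.07, H2-T23 at 0.06 and B2m at 0.01.

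**Figure D4:**
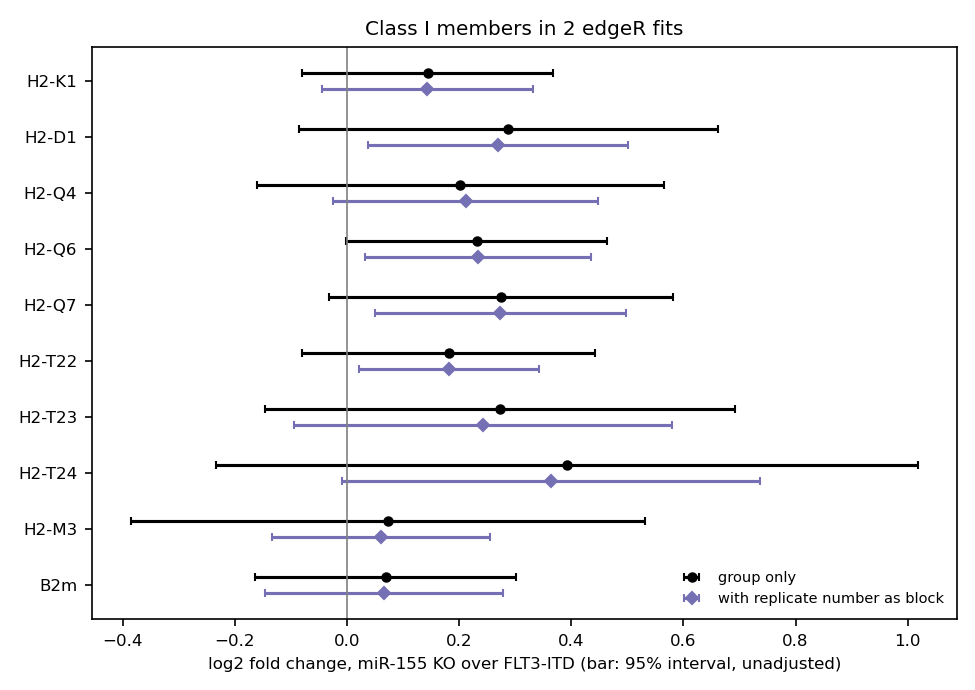
Log2 fold change of each class I member, miR-155 KO over FLT3-ITD, in the edgeR fit on the group alone (black circles) and with the replicate number as a block (purple diamonds); bars are unadjusted 95% intervals. All point estimates lie between 0.06 and 0.39, and every black interval holds 0. The purple intervals of H2-D1, H2-Q6, H2-Q7 and H2-T22 lie above 0.

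Classical and non-classical heavy chains were compared as shares of the summed heavy chain FPKM, as a description with no test. H2-K1 and H2-D1 made up 77.2%, 78.2% and 78.3% of the heavy chain level in KO libraries, against 78.8%, 77.5% and 77.6% in FLT3-ITD libraries. The means were 77.9% ± 0.609 in KO and 78.0% ± 0.700 in FLT3-ITD libraries (SD, n = 3 each), a difference of -0.07 percentage points that was smaller than either SD. In CPM, without lengths, the mean classical share was 78.6% ± 0.525 in KO and 78.8% ± 0.858 in FLT3-ITD libraries (SD, n = 3 each). Both FPKM sums were higher on average in KO libraries. The classical sum was 1180.4, 1134 and 969 FPKM in KO libraries and 969, 990.3 and 890.5 FPKM in FLT3-ITD libraries, and the non-classical sum was 348, 316 and 268 FPKM in KO and 261, 287 and 257 FPKM in FLT3-ITD libraries. The median log2 fold change was 0.22 over the 2 classical and 0.23 over the 7 non-classical genes.

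The order of libraries in the members' median resembled that in a list of interferon response genes. Single members varied in this. Their Pearson r with the median of that list over the 6 libraries ran from 0.40 (H2-Q4) and 0.57 (H2-Q6) to 0.98 (H2-T22). With every gene centred on its 6-library mean, the members' median log2 CPM was 0.28, 0.10 and -0.08 in KO libraries and -0.04, -0.06 and -0.16 in FLT3-ITD libraries. The 12 core interferon response genes, all measured, had medians of 0.85, 0.16 and -0.03 in KO and 0.01, -0.54 and -0.60 in FLT3-ITD libraries, with summed levels of 639 to 1376 CPM in KO and 436 to 674 CPM in FLT3-ITD libraries. In both lists KO library 1 was highest and FLT3-ITD library 3 lowest, and in both the groups overlapped through KO library 3. All 12 interferon genes had a positive fold change, and 8 an unadjusted p under 0.05 in edgeR, against 3.9% of all genes. Of the 12, 0 passed adjustment in edgeR or DESeq2 and 7 passed in edgeR with the block, against 1.36% of all genes. Their median log2 fold change was 0.83, 0.44 without KO library 1 and 0.65 without both libraries of number 1. In that last fit 1 of the 12 passed, against 27 of 13337 genes.

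Markers of other cell types differed between libraries too, and the summed plasma cell and neutrophil markers did not overlap between the groups. The 8 dendritic cell markers, all measured, had medians of 0.91, -0.08 and -0.38 in KO and 0.12, -0.29 and -0.10 in FLT3-ITD libraries. Of the 8, 0 passed in edgeR (0 at an unadjusted p under 0.05) or DESeq2, and 2 passed with the block, against 1.36% of all genes. Their median log2 fold change was 0.31, and -0.14 without KO library 1. Their summed level was 1445 to 3546 CPM in KO and 1707 to 1982 CPM in FLT3-ITD libraries. That list includes Flt3, the gene that carries FLT3-ITD in all mice here, and Bst2, which interferon also induces. Macrophage markers (7 of 8 in the table, Cd5l under the filter, none at 0) summed to 72.5 to 465 CPM in KO and 47.9 to 669 CPM in FLT3-ITD libraries, with C1qa at 39.8, 3.46 and 8.27 CPM in KO and 69.0, 3.79 and 6.48 CPM in FLT3-ITD libraries. Plasma cell markers (7 of 8 in the table, none at 0) summed to 671 to 1734 CPM in KO and 3050 to 4407 CPM in FLT3-ITD libraries. Of the 7 plasma cell markers, 0 had a positive fold change, and their median log2 fold change was -1.57. In edgeR 0 of them passed (7 at an unadjusted p under 0.05, against 3.9% of all genes). With the block 5 passed, against 1.36% of all genes, and in DESeq2 4 passed, against 127 of 13217 genes.

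The remaining marker lists were present too, with no marker at 0. Neutrophil markers (6 of 7 tested, Ly6g under the filter) summed to 219.6 to 329 CPM in KO and 380.2 to 472 CPM in FLT3-ITD libraries. Of the 6, 0 had a positive fold change, and their median log2 fold change was -0.71. In edgeR 0 of them passed, with or without the block. Without it 6 had an unadjusted p under 0.05 in edgeR, against 3.9% of all genes. In DESeq2 3 passed, all lower in KO, against 127 of 13217 genes. B cell markers (4 of 6 tested) summed to 33.8 to 50.3 CPM in KO and 44.9 to 72.1 CPM in FLT3-ITD libraries, and T and NK cell markers (7 of 8 tested, Cd3e under the filter) to 20.7 to 42.8 CPM in KO and 22.6 to 46.0 CPM in FLT3-ITD libraries. Erythroid markers (2 of 5 tested) summed to 3.07 to 15.6 CPM in KO and 4.25 to 23.9 CPM in FLT3-ITD libraries. The part of these cells in the class I values was not tested.

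**Figure D5:**
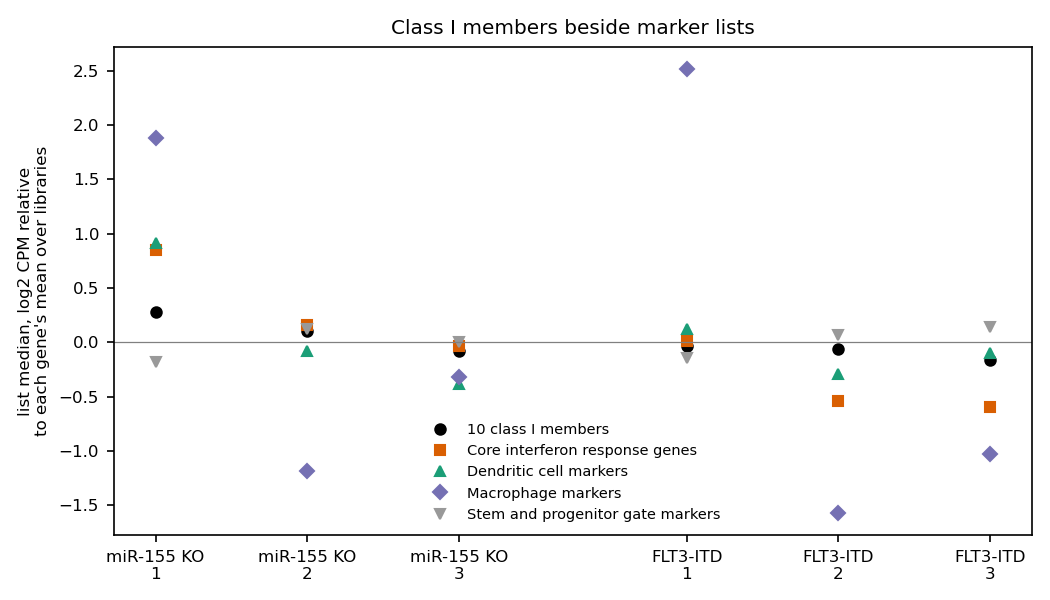
Median log2 CPM of 5 gene lists in each library after centring every gene on its 6-library mean, with the miR-155 KO libraries left and the FLT3-ITD libraries right. The class I members span -0.16 to 0.28, far less than the macrophage markers (-1.57 to 2.51), and share their highest library, KO library 1, with the interferon response and dendritic cell lists.

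The other genes of the pathway were taken from 3 lists. Of 13 genes that make, carry and load peptides, 12 had a positive fold change and 0 passed in edgeR, with or without the block, or in DESeq2. An unadjusted p under 0.05 in edgeR was reached by 0 of 13, and by 4 of 13 with the block (9.37% of all genes). The list's median log2 fold change was 0.15, and 0.05 without KO library 1. Tap1, a chain of the peptide transporter into the endoplasmic reticulum, had 454, 372 and 352 CPM in KO libraries against 355, 301 and 319 CPM in FLT3-ITD libraries (log2 fold change 0.27 ± 0.12, SE; adjusted p 0.9995 in edgeR). KO library 3 lay just under FLT3-ITD library 1, and without KO library 1 the Tap1 log2 fold change was 0.16. Psmb10, a subunit of the immunoproteasome, had 103, 99.3 and 87.8 CPM in KO libraries and 91.3, 84.3 and 76.5 CPM in FLT3-ITD libraries. Psmb9, another subunit, had 221, 168 and 151 CPM in KO and 161, 144 and 162 CPM in FLT3-ITD libraries. Their log2 fold changes were 0.20 ± 0.10 and 0.21 ± 0.14 (SE), and KO library 3 lay within the control range for both. Psmb9 stood at 0.04 without KO library 1 and at 0.33 without KO library 3.

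Of 12 regulators of class I transcription, 5 had a positive fold change, 0 passed in edgeR, with or without the block, or in DESeq2, and the median log2 fold change was -0.02. Irf1, a transcription factor that activates class I promoters, had 177, 214 and 169 CPM in KO libraries and 124, 155 and 147 CPM in FLT3-ITD libraries. Its groups did not overlap, and its log2 fold change was 0.39 ± 0.12 (SE; adjusted p 0.800 in edgeR, 0.0995 with the block). Nlrc5, the class I coactivator, had 306, 244 and 219 CPM in KO libraries against 213, 215 and 213 CPM in FLT3-ITD libraries (0.26 ± 0.12, SE; adjusted p 0.9995 in edgeR), also with no overlap, and 0.12 without KO library 1. Irf2, which can antagonise Irf1, had 26.7, 23.3 and 25.1 CPM in KO and 29.9, 28.3 and 29.2 CPM in FLT3-ITD libraries, a log2 difference of -0.22 ± 0.10 (SE; edgeR adjusted p 0.9995). Of the 12, Irf1 and Nlrc5 lay wholly above the control, against 3.43% of all genes, and Irf2 wholly below it, against 4.79%.

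Class I relatives outside the members numbered 22 in the list, of which 16 were in the table and 9 passed the filter on low counts. Of these 9, 5 had a positive fold change and 0 passed in edgeR, with or without the block, or in DESeq2. Their median log2 fold change was 0.19, and -0.06 without KO library 1. H2-Q5 had 47.5, 44.7 and 31.3 CPM in KO libraries and 26.8, 33.0 and 25.0 CPM in FLT3-ITD libraries, a log2 difference of 0.54 ± 0.18 (SE; edgeR adjusted p 0.930). H2-Q2 went the other way at a very low level, with 5, 6 and 5 counts in KO libraries and 16, 12 and 15 counts in FLT3-ITD libraries (-1.14 ± 0.33, SE; adjusted p 0.687 in edgeR). H2-T10, which shares much sequence with H2-T22, had 25.1, 19.1 and 16.4 CPM in KO and 20.4, 14.8 and 15.3 CPM in FLT3-ITD libraries (0.26 ± 0.21, SE; adjusted p 0.9995 in edgeR). The H2-T10 log2 fold change was 0.08 without KO library 1, 0.39 without KO library 3 and 0.43 without FLT3-ITD library 1. Among the relatives that did not pass the filter, H2-Q1, H2-T3, H2-Bl and H2-M10.1 had at most 6 counts in any library. Unadjusted p under 0.05 was reached in edgeR by Irf1, H2-Q2 and H2-Q5 among the 34 tested genes of the 3 lists, against 3.9% of all genes. With the block it was reached by 3 of the 12 regulators and 3 of the 9 relatives, against 9.37% of all genes.

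Among 6700 genes with a mean log2 CPM of at least 5, those whose levels over the 6 libraries were most like the members' median included Smad4, Poglut1, Atf6b and Vwa5a. Their Pearson r with that median lay between 0.988 and 0.994, as a description over 6 libraries picked as the highest of 6700 values. Smad4, which carries TGF-beta signals, had 121, 109.5 and 97.2 CPM in KO and 101, 101 and 95.1 CPM in FLT3-ITD libraries, and the groups overlapped through KO library 3.

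The authors' deposited table gives log2 fold changes of 0.07 (B2m) to 0.39 (H2-T24) for the 10 members, all positive, with an adjusted p of 0.9999 for each. Of the 16577 genes with an adjusted p in the authors' deposited table, 106 were under 0.05.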

How the data were processed

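RNA-seq gene counts, FPKM values and a comparison were used as the authors deposited them. The authors deposited the counts unnormalized, and the FPKM values as the authors' scaling of those counts per length and library total: the library factor of FPKM over counts equalled the ratio of count totals. The log2 fold changes and adjusted p-values of the authors' own comparison were deposited in the same table. Novoalign 2.08.01, DESeq2 1.10.1 and mm10 are named in the submitters' processing notes; counter, annotation and strand use are not stated there. Coordinates, transcripts and UTRs came from GENCODE M21 (GRCm38, the assembly of mm10), which matched 21966 of the 22475 identifiers; promoters and the miRNA came from RefSeq.

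Counts were fitted with edgeR 4.0.16 in R 4.3.3: filterByExpr (minimum count 10, minimum total 15), TMM, a quasi-likelihood test of the group term, and Benjamini-Hochberg adjustment over all 13217 genes tested, with a threshold of 0.05. SE values came from the F statistic. The floor of 3 counts was 0.318 to 0.438 CPM, for counting error only. The test was checked on simulated counts. Alternatives were edgeR with RLE factors, DESeq2 1.42.0, other filters, library sizes without immunoglobulin genes, the replicate block, and leaving out libraries.

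Replicate numbers in the titles recur in both groups. Deviations from group means correlated by r = 0.57, 0.53 and 0.22 for numbers 1, 2 and 3. All were above the limit of 0.1 for treating them as pairs. Between unlike numbers r lay between -0.51 and 0.13. The 0.13, of KO library 2 with FLT3-ITD library 3, was also above that limit. The pairing was seen in the values only, since the labels name no shared source. The members and gene lists were chosen with earlier results of these data known. Named were all members, the 3 genes of each pathway list with the smallest p, and the 5 genes most like the members, of which 1 is not reported here.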

Additional observations from a re-analysis of the deposited data

How the results depend on the processing

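The 10 members gave 154 fold changes under the alternatives. Of these, 152 kept their direction and stayed without a call, and 2 reversed, both of H2-M3: -0.15 without KO replicate 1 and -0.01 (-0.0130) without both libraries of number 1. Leaving out 1 library at a time, H2-M3 ran from -0.15 to 0.22. The smallest adjusted p of any member was 0.365 (H2-T23 without KO replicate 3, edgeR). With RLE factors 1 of 10 members had an unadjusted p under 0.05 in edgeR, against 512 of all 13217 genes tested. With library sizes without immunoglobulin genes it was 1 member, against 522 of 13217 genes. Without both libraries of number 3 it was 1 member, against 483 of 13373 genes. It was 3 members without FLT3-ITD replicate 2 (431 of 13382 genes) and 4 without KO replicate 3 (900 of 13539 genes). The count of 21 genes past the threshold became 180 with the replicate block, 127 in DESeq2, 97 with all genes kept, and 0 to 27 when 1 library was left out. The 0 came without FLT3-ITD replicate 1 or 3, where 766 and 358 genes had an unadjusted p under 0.05 in edgeR; without FLT3-ITD replicate 2 it was 9 and without KO replicate 2 it was 8. Without both libraries of number 2 it was 10, and of number 3 it was 6; these fits were added after seeing the data. The count stayed within 1.5 times of 21 with RLE factors, the stricter filter, library sizes without immunoglobulin genes, and without KO replicate 1 or 3 or both libraries of number 1. The number of members and of other pathway genes past the threshold was 0 under each alternative, and the replicate block changed a call only for Gm26667 among the named genes. The classical share difference of -0.07 percentage points was -0.29 to 0.33 when 1 library was left out, and 0.68 without both libraries of number 1. The causes of these changes were not tested. Depth limits the rarest relatives, with a few counts per library, and the spread between 3 pools limits the members, whose counts were at least 221.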
